A study of Drosophila melanogaster with 75 samples.

Results

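The cuticle protein genes of Drosophila melanogaster were followed in pools of male heads. The group was taken by name, as every probe set whose single gene symbol on the array platform begins with Cpr and a digit, Lcp and a digit, Ccp84A or Twdl. It held 100 genes on 102 probe sets, out of 11982 genes on 13647 probe sets with 1 symbol. Of these 102 probe sets, 16, each for a different gene, reached the mean log2 signal of 4 over all 15 arrays that was set for testing. All flies were males of the isogenized Canton-S strain, aged 5 days and kept at 25°C, raised as virgins in small groups and moved to individual vials the day before the experiment. Each array carried RNA from a pool of 20 heads, and each of the 3 arms had 5 arrays. In the courtship arm, males had been with a virgin female that had been cauterized, and were watched for 20 min. The control arm had no female. The third arm is called male in the sample titles, but the treatment entry of its samples is worded as in the courtship samples, so that what these males met is not settled by the labels. The selection of males that courted robustly is written in the labels of all 3 arms. Nothing in the labels says that pools came from separate rearings, so p-values measure the spread between these pools.

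The insect cuticle is a layered extracellular matrix of chitin fibres and proteins that the epidermis secretes before and after each moult. Most Cpr proteins carry the Rebers-Riddiford consensus, a sequence that binds chitin. The Lcp proteins were first described from larval cuticle, and the Ccp84A genes form a cluster of cuticle genes. The Tweedle (Twdl) family is a separate family of cuticle proteins, in which mutations of TwdlD alter body shape. In the head, cuticle genes are known from the epidermis and from the corneal lens of the compound eye, for which Cpr72Ec and Cpr66D are structural components.

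Most cuticle protein genes gave signal near the bottom of the array's scale. The share of probe sets that passed the filter was 15.7% in the group, against 47.6% of all 18769 probe sets. Of the 13647 probe sets with 1 symbol, as the group's have, 7886 passed. Of the 67 Cpr probe sets, 14 passed, and of the 24 Tweedle probe sets 2 passed. None of the 8 Lcp and none of the 3 Ccp84A probe sets passed. A probe set that carries both Lcp65Ag1 and Lcp65Ag2, and so is not in the group, had a mean log2 signal of 7.28. The 86 probe sets below the filter had mean log2 signals from 1.93 to 3.82 with a median of 2.23, and 83 of them lay below 3. Those nearest to the filter from below were Cpr11B, at 3.82 with single arrays from 3.09 to 4.74, and the lens gene Cpr66D, at 3.58 with arrays from 3.17 to 3.96. Cpr11B was the one probe set below the filter with any array at or above 4. The nearest from above were Cpr97Eb, at 4.75, and Cpr62Bc, at 5.21. A signal below the filter gives no transcript level on this platform, and it does not show that the gene is silent.

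**Figure D1:**
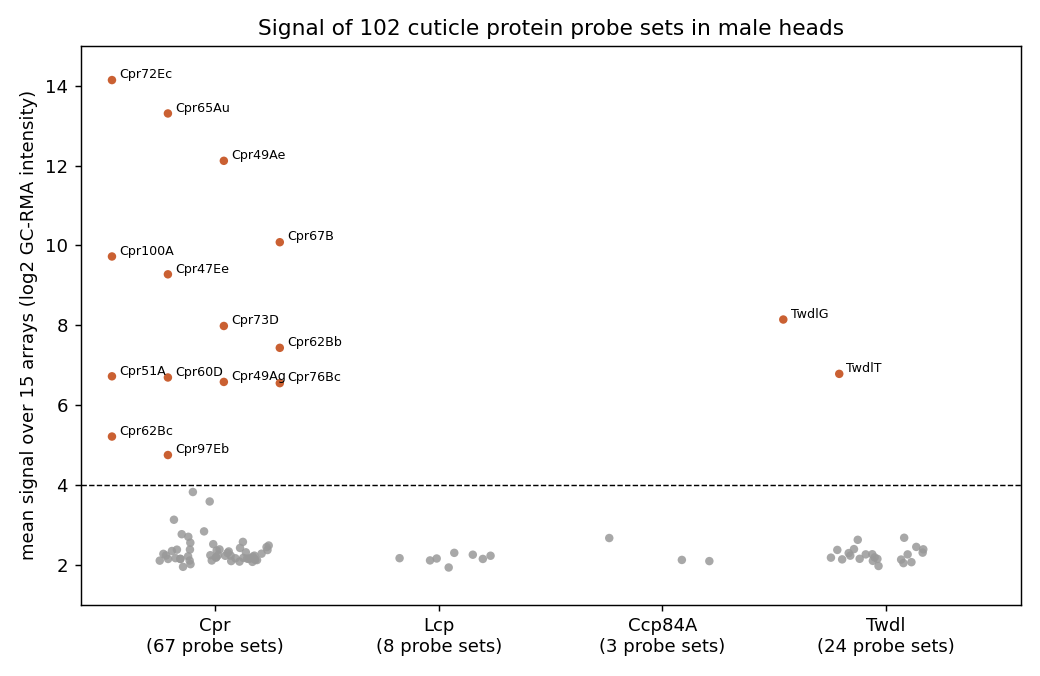
Mean log2 GC-RMA intensity over 15 arrays (vertical axis) of each of 102 probe sets, by gene family (horizontal axis). Orange points are the 16 tested probe sets, grey points the 86 others, and the dashed line marks 4. All Lcp and Ccp84A points lie below 3.

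The 3 brightest members were Cpr72Ec, Cpr65Au and Cpr49Ae, with mean log2 signals of 14.14, 13.31 and 12.12. Cpr67B followed at 10.08, Cpr100A at 9.72 and Cpr47Ee at 9.28. The remaining Cpr members were Cpr73D at 7.98, Cpr62Bb at 7.43, Cpr51A at 6.72, Cpr60D at 6.69, Cpr49Ag at 6.58, Cpr76Bc at 6.55, Cpr62Bc at 5.21 and Cpr97Eb at 4.75. The Tweedle members TwdlG and TwdlT lay at 8.14 and 6.78. These values describe each probe set's own signal. Probe sets bind with different strength, so they do not rank the genes by transcript amount.

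The bright members varied little. For the lens gene Cpr72Ec the log2 signal was 14.21, 14.23, 14.11, 14.11 and 14.08 in courtship arrays 1 to 5, 14.11, 14.10, 14.13, 14.14 and 13.96 in control arrays and 14.14, 14.15, 14.33, 14.12 and 14.24 in male arrays. Its 15 values span 0.38, and the 3 arms overlap. Cpr65Au gave 13.24, 13.12, 13.52, 13.23 and 13.39 in the courtship arm, 13.09, 13.15, 13.31, 13.30 and 13.37 in the control arm and 13.56, 13.58, 13.42, 13.10 and 13.24 in the male arm. Male arrays 1 and 2 were its highest and control array 1 its lowest, again with overlapping arms. Cpr49Ae gave 12.13, 12.00, 12.31, 12.21 and 12.21 in the courtship arm, 12.16, 12.09, 12.10, 12.07 and 11.96 in the control arm and 11.89, 12.28, 12.16, 11.89 and 12.37 in the male arm. The male arm held both its highest and its lowest values. The spread within arms was widest for Cpr51A, with an SD of 0.47, and narrowest for Cpr72Ec, with an SD of 0.08. Cpr62Bc lay within 0.01 of a single log2 value on 8 of 15 arrays, so its spread in these values is partly that of a fixed level.

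**Figure D2:**
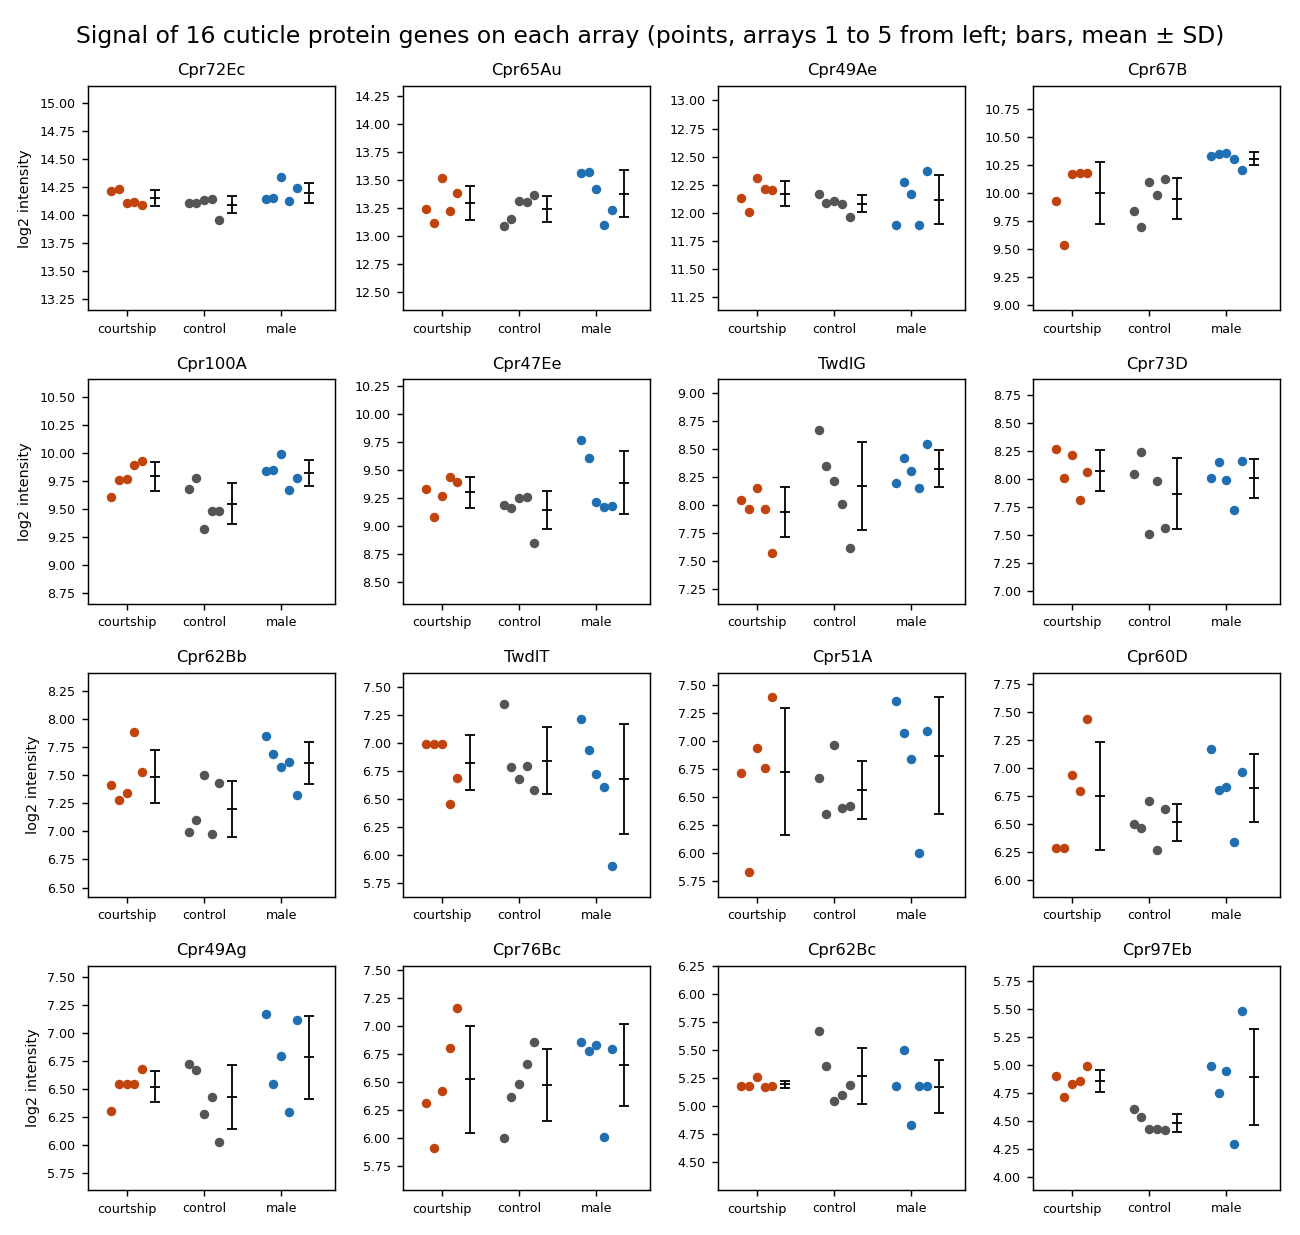
Log2 GC-RMA intensity (vertical axes, each spanning the same number of log2 units) of the 16 tested genes on each array, with arrays 1 to 5 of an arm from left to right. Bars give the mean ± SD of 5 arrays. The male arm of Cpr67B lies above every control and courtship array.

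Many of these genes stand beside close relatives on the chromosome. In the gene order of the RefSeq annotation of Release 6 plus ISO1 MT, all 102 probe sets were found by gene ID, and 69 of the genes lay in 19 runs of members with at most 1 other protein-coding gene between neighbours. In 11 runs no member passed the filter, in 6 runs 1 member did and in 2 runs 2 members did. Cpr47Ee alone passed among the 7 genes from Cpr47Ea to Cpr47Eg, Cpr76Bc alone among the 4 genes from Cpr76Ba to Cpr76Bd, and Cpr72Ec alone among the 3 genes from Cpr72Ea to Cpr72Ec. Cpr49Ae and Cpr49Ag passed while Cpr49Af, which lies between them, had a mean log2 signal of 2.22. Cpr62Bb and Cpr62Bc passed beside Cpr62Ba, at 2.76. The longest run, of 11 Tweedle genes from TwdlM to TwdlD, held no tested member, and its highest mean was 2.45. All 10 tested members that lay in runs had at least 1 other gene of their run below the filter, though not always the adjacent one. Since 86 of all 102 probe sets lay below the filter, such a gene is common by that share alone. The other 6 tested members lay outside runs.

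The first comparison asked whether the heads of males that had been with a female differed from those of control males. No cuticle protein gene passed limma's moderated test at a Benjamini-Hochberg adjusted p below 0.05 over all 8926 tested probe sets, where 0% of all probe sets passed and the members' smallest adjusted p was 0.999. At an unadjusted p below 0.05, 2 of 16 members passed, against 2.86% of all probe sets, and both lay higher in the courtship arm, as did 1.64% of all. The courtship mean lay higher for 13 of 16 members, against 54.4% of all probe sets, with differences from -0.23 to 0.38 on the log2 scale. The members' median difference was 0.09 and that of all tested probe sets 0.01. The standard errors ran from 0.06 to 0.27. Neuronal markers lay lower in the courtship arm on 16 of 17 probe sets, with a median of -0.27. Photoreceptor markers lay lower on 10 of 10, with a median of -0.08, and muscle markers on 10 of 12, with -0.05. Higher in the courtship arm lay glial markers on 5 of 7, fat body markers on 6 of 7 and haemocyte markers on 7 of 8. Their medians were 0.04, 0.05 and 0.11. None of these markers passed the threshold, and their part in the members' differences was not tested.

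Cpr97Eb gave 4.90, 4.72, 4.84, 4.86 and 4.99 in the courtship arm, 4.61, 4.54, 4.43, 4.43 and 4.42 in the control arm and 4.99, 4.76, 4.95, 4.30 and 5.48 in the male arm. All 5 courtship arrays lay above all 5 control arrays, and it was the one member whose arms did not overlap, against 0.605% of all probe sets (0.359% with the courtship arm higher). Its courtship mean lay 0.38 ± 0.15 (SE) above control on the log2 scale. Cpr100A gave 9.61, 9.76, 9.77, 9.90 and 9.94 in the courtship arm, 9.68, 9.78, 9.33, 9.48 and 9.49 in the control arm and 9.84, 9.85, 9.99, 9.67 and 9.78 in the male arm. Control arrays 1 and 2 reached into the range of the courtship arm, and the difference was 0.24 ± 0.09 (SE). Both genes had an adjusted p of 0.999 in limma.

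Cpr62Bb gave 7.42, 7.28, 7.34, 7.88 and 7.53 in the courtship arm, 6.99, 7.10, 7.50, 6.98 and 7.44 in the control arm and 7.85, 7.69, 7.57, 7.62 and 7.33 in the male arm. Control arrays 3 and 5 lay among the courtship values, and the difference was 0.29 ± 0.14 (SE). Without courtship array 4 that difference was 0.19. Cpr73D gave 8.27, 8.01, 8.22, 7.81 and 8.07 in the courtship arm, 8.04, 8.24, 7.51, 7.98 and 7.56 in the control arm and 8.01, 8.15, 7.99, 7.72 and 8.16 in the male arm. The arms overlap, with control arrays 3 and 5 lowest. Its difference of 0.21 ± 0.14 (SE) was 0.12 without control array 3. The median of the 16 differences was 0.06 without courtship array 5 and 0.18 without courtship array 2, and 0.02 with the code letter of the sample description as a block. Courtship array 5 and male arrays 2 and 3 each have a letter that no other array has. They therefore do not enter the differences of the fit with that block.

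The second comparison set the male arm against the same control arrays, which the first comparison also used. No cuticle protein gene passed at an adjusted p below 0.05, against 3.66% of all probe sets, made up of 2.17% that rose and 1.49% that fell. The smallest adjusted p among the members was 0.0707. At an unadjusted p below 0.05, 4 of 16 members passed, all higher in the male arm, against 34.1% of all probe sets in either direction and 18.5% higher. The male mean lay higher for 14 of 16 members, against 52.9% of all probe sets, with differences from -0.16 to 0.41 on the log2 scale. The members' median difference was 0.21 and that of all tested probe sets 0.02.

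Cpr67B gave 9.93, 9.53, 10.17, 10.17 and 10.17 in the courtship arm, 9.83, 9.69, 10.10, 9.98 and 10.12 in the control arm and 10.33, 10.34, 10.35, 10.30 and 10.20 in the male arm. Every male array lay above every array of the other arms. It was the one member without overlap between male and control, against 11.0% of all probe sets, or 7.26% with the male arm higher. Its male mean lay 0.36 ± 0.12 (SE) above control on the log2 scale, or 1.28-fold, with a limma adjusted p of 0.0707. This gene passed without courtship array 2, with an adjusted p of 0.0284, where 11.5% of all probe sets passed. It passed when the courtship arm was left out of the fit, with 0.0473, where 5.55% of all passed. It also passed with the replicate number as a block, with 0.0375, and with weights estimated for each array, with 0.0239, where 1690 and 1873 of 8926 probe sets passed. Its adjusted p rose to 0.167 without male arrays 1 and 5, to 0.152 with no filter and to 0.103 with the code letter as a block. In these fits 0, 12 and 980 of all probe sets passed. The difference was 0.39 without male arrays 1 and 5, 0.36 with no filter and 0.27 with the code letter as a block. Of the male arm, the fit with the code letter draws on arrays 1, 4 and 5 only.

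For Cpr62Bb the male arm lay 0.41 ± 0.14 (SE) above control, with an adjusted p of 0.0711, and 4 of 5 male arrays exceeded every control array. For Cpr100A the difference was 0.27 ± 0.09 (SE), with an adjusted p of 0.0732 and 3 of 5 male arrays above every control array. With array weights both passed, at adjusted p of 0.0373 and 0.0308, so that 3 of 16 members passed and 1873 of all 8926 probe sets. Without male arrays 1 and 5 their adjusted p rose to 0.156 and 0.178, at differences of 0.43 and 0.29, where 0 of all probe sets passed. With the code letter as a block it rose to 0.233 and 0.221, at differences of 0.38 and 0.22. For Cpr97Eb the difference was 0.41 ± 0.15 (SE), with an adjusted p of 0.0913, and male array 4, at 4.30, lay below all control arrays. Without male array 4 its difference was 0.56 with an adjusted p of 0.0386, where 5.76% of all probe sets passed, and without male array 5 it was 0.26. Without both male arrays 1 and 5 its difference was 0.18, with an adjusted p of 0.38. The remaining 12 members had adjusted p from 0.149 for Cpr49Ag to 0.793 for Cpr49Ae. TwdlT and Cpr62Bc were the 2 members with a lower male mean, at differences of -0.16 and -0.10.

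**Figure D3:**
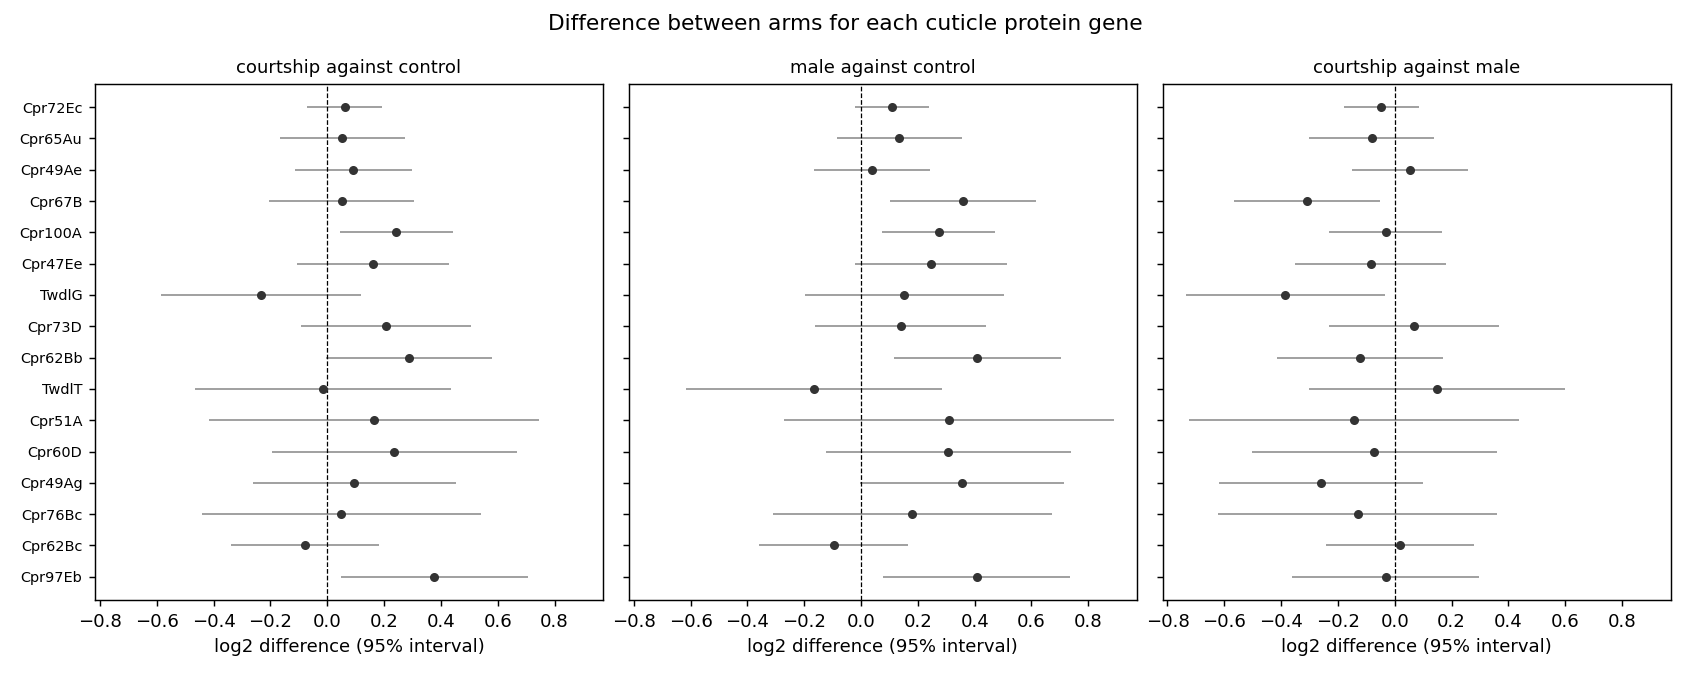
Log2 difference between arm means (horizontal axes) with 95% intervals of the limma fit for the 16 tested genes (vertical axis) in 3 comparisons. In male against control 14 of 16 points lie above 0. The intervals are not adjusted for the number of probe sets tested.

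The third comparison set the courtship arm against the male arm. No member passed at an adjusted p below 0.05, against 0% of all probe sets, and the smallest adjusted p was 0.325. At an unadjusted p below 0.05, 2 of 16 members passed, both lower in the courtship arm, against 15.2% of all probe sets, while 0 members and 7.95% of all passed with the courtship arm higher. The courtship mean lay higher for 4 of 16 members, against 48.1% of all probe sets. The median difference was -0.08 on the log2 scale, and it was -0.01 without courtship array 2 and -0.15 without male array 4. In 2 members the arms did not overlap, Cpr67B and TwdlG, both with the courtship arm lower, against 1.84% of all probe sets in either direction. Without overlap and with the courtship arm higher were 0 members and 0.818% of all probe sets. Cpr67B lay lower in the courtship arm by a log2 difference of -0.31 ± 0.12 (SE), which was -0.19 without courtship array 2.

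The Tweedle gene TwdlG gave 8.04, 7.97, 8.15, 7.96 and 7.57 in the courtship arm, 8.67, 8.35, 8.21, 8.01 and 7.62 in the control arm and 8.20, 8.42, 8.30, 8.15 and 8.55 in the male arm. Every male array lay above every courtship array, the nearest pair differing in the third decimal, while the control arm overlapped both. The log2 difference was -0.39 ± 0.16 (SE), with a limma adjusted p of 0.325. Cpr49Ag gave 6.31, 6.55, 6.55, 6.55 and 6.68 in the courtship arm, 6.73, 6.68, 6.28, 6.44 and 6.03 in the control arm and 7.17, 6.55, 6.80, 6.29 and 7.12 in the male arm. Male arrays 1 and 5 were its highest, male array 4 lay with the lowest, and the difference of -0.26 ± 0.17 (SE) was -0.16 without male array 1. For Cpr62Bb the difference was -0.12 ± 0.14 (SE), with -0.06 without male array 1 and -0.22 without courtship array 4.

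The authors deposited the same arrays in 5 processings, and the tested members were read in each over the same 8926 probe sets. The male mean lay above control for 14 of 16 members in R GC-RMA, GeneSpring GC-RMA and dChip PM and for 13 in MAS5 and dChip PM-MM. The median difference ranged from 0.09 in dChip PM-MM to 0.24 in MAS5. No member passed in any of the 5, and the smallest adjusted p was 0.0525, for Cpr62Bb in dChip PM. Cpr62Bb lay between 0.27 and 0.41 above control in the 5 processings and Cpr67B between 0.20 and 0.43. Cpr97Eb ranged from 0.13 in dChip PM to 0.50 in MAS5, and Cpr100A from 0.11 in dChip PM-MM to 0.28 in MAS5. In courtship against control, Cpr97Eb ranged from 0.14 in dChip PM to 0.57 in MAS5, Cpr100A from 0.15 in dChip PM-MM to 0.24 in R GC-RMA, Cpr62Bb from 0.18 in dChip PM to 0.29 and Cpr73D from 0.03 in MAS5 to 0.21. In courtship against male, Cpr67B ranged from -0.31 in R GC-RMA to -0.14 in dChip PM, TwdlG from -0.39 to -0.20, Cpr49Ag from -0.26 to -0.09 and Cpr62Bb from -0.12 to -0.0016 in dChip PM-MM. TwdlG lay lower in the courtship arm than in the control arm in all 5. These processings start from the same scans and are not independent measurements.

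Signals that reflect RNA quality and other cells varied between the arrays too. For 5 pairs of control probe sets at the 3' and 5' ends of 1 transcript, the mean log2 ratio between the ends was 3.42 in male array 1, 3.01 in control array 1 and 2.65 in male array 5, against 1.92 to 2.35 in the other 12 arrays. The mean of the 16 members, relative to their control means, was 0.35, 0.29, 0.20, -0.09 and 0.23 in male arrays 1 to 5 and 0.06, -0.09, 0.18, 0.14 and 0.25 in courtship arrays. Male array 4 was the one male array below the control mean. The members' median difference between male and control was 0.12 without male arrays 1 and 5 and 0.21 with the 3' over 5' ratio as a covariate. With that covariate the median moved from 0.09 to 0.14 in courtship against control and from -0.08 to -0.01 in courtship against male. In male against control the limma adjusted p with the covariate was 0.054 for Cpr67B, 0.060 for Cpr62Bb and 0.065 for Cpr100A. In that fit 1365 of all 8926 tested probe sets passed. In heads, all 9 neuronal and all 7 photoreceptor markers with 1 symbol passed the filter. The 17 probe sets of neuronal markers all lay lower in the male arm, with a median of -0.75 and array values from -1.31 to -0.44, against -0.26 to 0.36 in control arrays and -0.56 to 0.20 in courtship arrays. Muscle markers lay lower on 12 of 12 probe sets, with a median of -0.40, and photoreceptor markers on 10 of 10, with a median of -0.28. Fat body markers lay higher on 6 of 7, with a median of 0.13, glial markers on 6 of 7, with a median of 0.12, and haemocyte markers on 5 of 8, with a median of 0.21. The markers past the threshold all fell in the male arm and were the neuronal genes Sh, Rim and Shab, the photoreceptor genes rdgA and trp, the glial gene drpr and the muscle gene sls, with log2 differences from -1.38 to -0.34. The smallest limma adjusted p was 0.0506 in the fat body list, for Lsp2 at 0.76, and 0.185 in the haemocyte list, for Sr-CI at 0.32. The markers eater and NimC1 of haemocytes, gcm of glia, Yp1, Yp2 and Fbp1 of the fat body and TpnC4 of muscle lay below the filter. In courtship against male, neuronal markers lay higher on 17 of 17 probe sets, muscle markers on 11 of 12 and photoreceptor markers on 10 of 10. Their medians were 0.44, 0.37 and 0.17. Lower in the courtship arm lay glial markers on 6 of 7, fat body markers on 4 of 7 and haemocyte markers on 4 of 8. No marker passed the threshold in that comparison. The part of RNA quality or of other cells in the members' differences was not tested. In pooled heads, fewer cells of a type and less RNA per cell cannot be told apart.

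**Figure D4:**
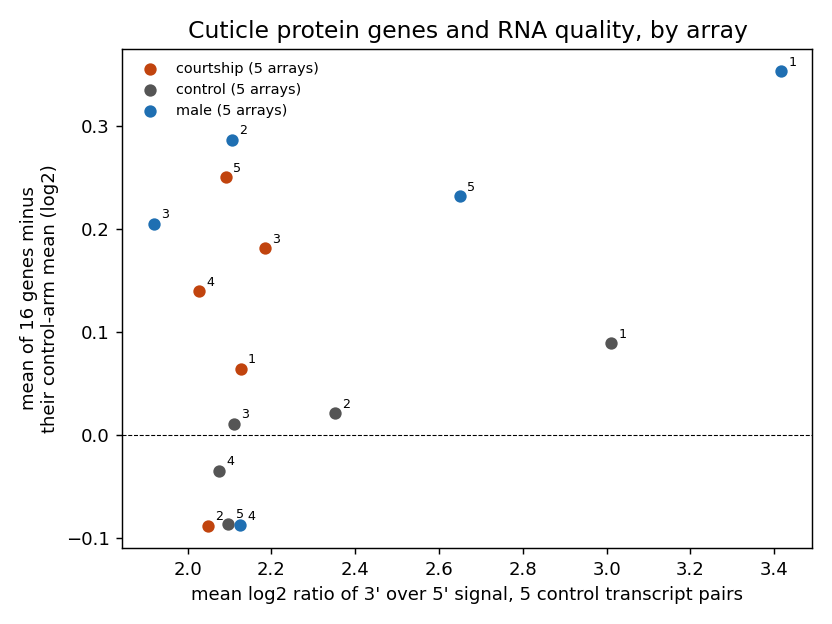
Mean log2 signal of the 16 tested genes minus their control-arm mean (vertical axis) against the 3' to 5' log2 ratio, averaged over 5 pairs of control probe sets (horizontal axis), 1 point per array, numbered by replicate. Male array 1 has the highest ratio, 3.42, and the highest member mean, 0.35. Male arrays 2 and 3 have ratios of 2.11 and 1.92 and member means of 0.29 and 0.20.

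Within arms, pairs of members were correlated in both directions. Over the deviations of 15 arrays from their arm means, 85 of 120 pairs of members had a Pearson correlation above 0 and 35 below, with a median of 0.24 and a range from -0.68 to 0.85. After Benjamini-Hochberg adjustment over the 120 pairs, 1 pair passed in a two-sided permutation test within arms with 100000 resamples, Cpr51A with Cpr60D. Their Pearson correlation was 0.85 over 15 arrays, with a permutation p of 0.0004 and an adjusted p of 0.048. Their Spearman correlation was 0.87, with a permutation p of 0.00017 and an adjusted p of 0.0204. Without the 2 arrays farthest from the median of Cpr51A, the Pearson correlation was 0.78, and without male arrays 1 and 5 it was 0.82. Arrays share scanning, RNA quality and normalization, which also enter such correlations. The same correlations were not computed for other probe sets, so the counts and the median have no reference. With 15 arrays, a pair that did not pass is not shown to be unrelated.

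**Figure D5:**
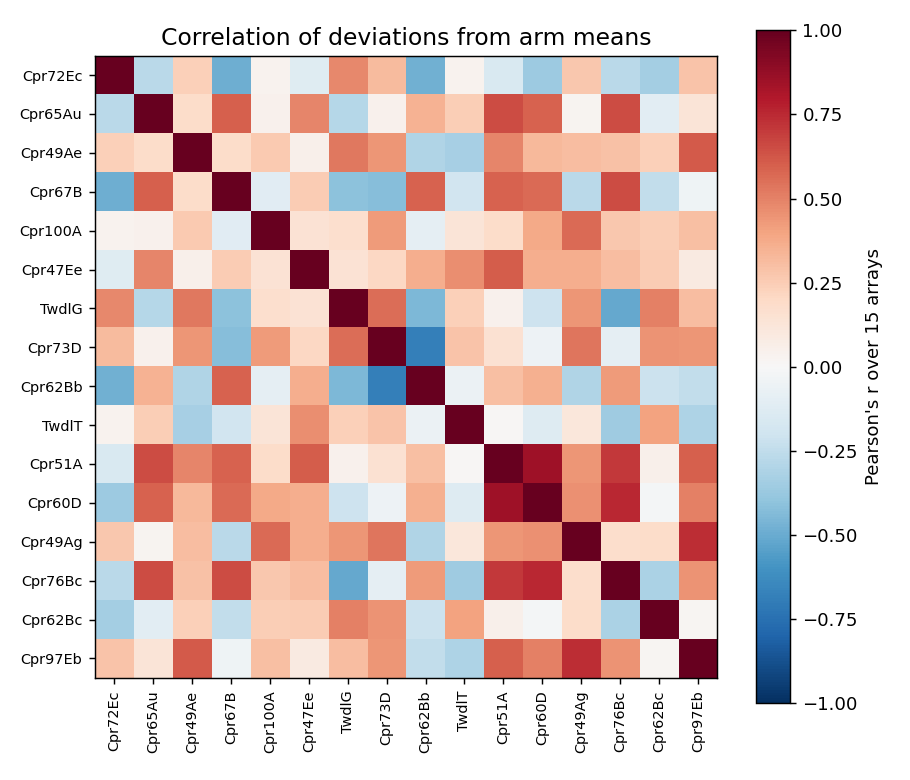
Pearson correlation over 15 arrays (colour scale from -1 to 1) between the deviations of each pair of the 16 tested genes from their arm means. Cpr51A and Cpr60D form the darkest pair, at 0.85, and the lowest value is -0.68.

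Other genes of cuticle formation were read beside the members, from lists drawn up with earlier results of these data known. Among other structural cuticle proteins, 0 of 15 probe sets passed in male against control, and the smallest p-values were those of obst-E, a chitin-binding protein of the cuticle, at differences of 0.31 and 0.31 on 2 probe sets with an adjusted p of 0.0934. Among 21 probe sets of chitin synthesis and remodelling, 1 rose and 1 fell, against 2.17% and 1.49% of all probe sets. Gfat1, the enzyme that feeds glutamine into the hexosamine pathway for chitin precursors, fell from a mean log2 signal of 8.67 ± 0.21 (SD) in control to 7.70 ± 0.27 in male arrays, a difference of -0.97 ± 0.17 (SE) with a limma adjusted p of 0.0281. Hexo2, a hexosaminidase, rose by 0.48 ± 0.12 (SE), with an adjusted p of 0.0476. In the courtship arm the mean was 8.03 ± 0.38 (SD) for Gfat1 and 8.65 ± 0.29 for Hexo2.

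Among 16 probe sets of tanning and pigmentation genes, 1 rose in male against control, against 2.17% of all probe sets. This was yellow-f2, a dopachrome conversion enzyme of melanin synthesis, at a difference of 0.65 ± 0.16 (SE) with a limma adjusted p of 0.0464. The calls of Gfat1, Hexo2 and yellow-f2 ended without male arrays 1 and 5, at adjusted p of 0.110, 0.138 and 0.130, and without control array 2, at 0.0975, 0.116 and 0.113. No tested probe set passed in either of these fits. With 1 array left out at a time, the call of Gfat1 ended in 3 of 15 fits and those of Hexo2 and yellow-f2 in 11 each. None of 4 probe sets of cuticular hydrocarbon genes passed, with Cyp4g15 at 0.28 and snu at -0.36. Among regulators of cuticle genes, 0 of 20 probe sets passed, and all 20 lay lower in the male arm, with a median of -0.25, while 52.9% of all probe sets lay higher. Their array values were -1.02 and -0.43 in male arrays 1 and 5, which had high 3' over 5' ratios, and -0.34, -0.07 and -0.22 in male arrays 2 to 4. The part of RNA quality in this was not tested. The smallest adjusted p-values were those of the juvenile hormone receptors gce, at a difference of -1.02 with 0.0525, and Met, at -1.42 with 0.0539. In courtship against control and courtship against male, no probe set of these 5 lists passed.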

How the data were processed

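RNA of male heads was hybridised to Affymetrix Drosophila arrays. The authors deposited linear intensity values from 5 processings of the 15 arrays, in 75 columns (per the labels). GCOS 1.2 and GCRMA are named in the submitters' processing notes. How the dChip and MAS5 values were normalized, and the genome build, are not stated there. Here, log2 of the R GC-RMA intensity was used, with dChip PM-MM values below 1 set to 1. Of 18952 probe sets, 183 controls were left out, and 8926 of 18769 with a mean log2 of at least 4 were tested. Genes were named from the platform annotation, where 13647 probe sets had 1 symbol, 402 several and 4720 none. limma 3.58.1 in R 4.3.3 fitted the 3 arms together (lmFit, eBayes, 12 residual degrees of freedom), with Benjamini-Hochberg adjustment over all tested probe sets and a threshold of 0.05. The number of arrays, 5 per arm, limits the precision.

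The text names every member above the filter, and gives each array for the 3 brightest and for the 4 smallest p-values of each comparison. Of other lists it names genes past the threshold, or else up to 2 with the smallest p in male against control. The members and lists were chosen with earlier results of these data known. The fit was tested on simulated data, with changes planted in the male arm and called against control. It recovered 66 of 100 changes of 1.5-fold and 86 of 100 of 2-fold, with 6 false calls. Smaller changes, such as the largest difference of a member, 1.33-fold, were not planted. Alternatives were the other processings, filters, blocks, weights, a 3' over 5' covariate and leaving out arrays. Readings of the other processings first used a filter on their own values. They were changed to the 8926 probe sets of the main filter after both had been seen, and the results of both are given. No sequences or coordinates are shown.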

Additional observations from a re-analysis of the deposited data

Results flagged for a closer look

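In 5 of 51 checks of a gene, or of the members' mean, within an arm, 1 array stood apart from the other 4 by Dixon's gap ratio; chance gives about 5% of such groups. Cpr72Ec read 13.957 in control array 5, against 14.104 to 14.139 in the other control arrays. In the same array Cpr47Ee read 8.8497, against 9.1588 to 9.2564. TwdlT read 7.3537 in control array 1, against 6.5865 to 6.8009, and control array 1 had a 3' over 5' ratio of 3.01. Cpr76Bc read 6.0052 in male array 4, against 6.775 to 6.8555. Cpr62Bc read 5.2539 in courtship array 3, against 5.1687 to 5.1795. The causes were not tested.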

How the results depend on the processing

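Under 28 other settings, no value of the 4 members with the smallest p in each comparison changed direction. No member passed in courtship against control or courtship against male under any of them. In male against control, where 0 members passed, 1 passed with the replicate block (Cpr67B, adjusted p 0.0375), 1 with only the 2 arms compared, 3 with array weights and 4 at a threshold of 0.10. Leaving out 1 array at a time gave 0 to 1 members. The causes were not tested, except that the 0.10 threshold is looser by construction. Whether replicate numbers pair the arrays was not settled: correlations between same-numbered arrays ran from -0.29 to 0.47. Courtship arrays 1, 2 and 5 correlated best with the control array of their number, and courtship arrays 1, 4 and 5 with the male array of their number. Control array 3 correlated best with male array 3, and the remaining best matches had another number. The member medians ranged over 1 array left out from 0.06 to 0.18 in courtship against control, from 0.17 to 0.31 in male against control and from -0.15 to -0.01 in courtship against male. The count of all probe sets called in male against control, 327, depended on the setting: 0 without male arrays 1 and 5, 12 with no filter, 64 in dChip PM-MM, 166 in MAS5, 613 in GeneSpring GC-RMA, 625 with a minimum mean log2 of 6 (where Cpr97Eb and Cpr62Bc were not tested), 495 with only the 2 arms compared, 572 with arrays centred on their median, 631 with a trend and robust variances, 980 with the code letter as a block, 1365 with the 3' over 5' covariate, 1690 with the replicate block, 1873 with array weights, 2083 at a threshold of 0.10, and from 0 (without control array 2) to 1027 (without courtship array 2) over 1 array left out. In courtship against control, where 0 passed, 12 did with array weights, 2 in each of the dChip processings and up to 4 with 1 array left out. In courtship against male 169 did with the code letter as a block, and at most 3 under the other settings. Courtship array 5 and male arrays 2 and 3 alone carry their code letter, so with that block they do not enter the differences.

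A set of alternatives was added after seeing the data, with the filter taken on each processing's own values. In GeneSpring GC-RMA it tested 37 members and called 1 in male against control, against 4.9% of all probe sets tested there. This was Cpr11B, at a difference of 0.68 with a limma adjusted p of 0.0423. This gene lay below the filter in R GC-RMA and was not tested there. The other 3 processings called 0 members under that filter. Of all probe sets tested in male against control, 503 of 10257 were called in GeneSpring GC-RMA and 23 of 18695 in dChip PM. In dChip PM-MM 7 of 14312 were called and in MAS5 0 of 12306.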

Other observations

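A further 6 probe sets carry the symbols of 2 genes each, of which at least 1 is a cuticle protein gene, and were kept out of the group. The probe set of Lcp65Ag1 and Lcp65Ag2 had a mean log2 signal of 7.28, with a highest array of 8.19, while none of the 8 Lcp probe sets with 1 symbol passed the filter. Its mean was 7.21 ± 0.47 (SD, n = 5) in the courtship arm, 7.19 ± 0.10 in the control arm and 7.45 ± 0.63 in the male arm. The limma adjusted p was 0.999 for courtship against control, 0.486 for male against control and 0.620 for courtship against male. Both probe sets of Obp57d, an odorant-binding protein, and Cpr57A passed, with means of 9.26 and 4.14, and these signals cannot be assigned to either gene. The probe sets of Ccp84Aa with Ccp84Ab, Cpr65Ax1 with Cpr65Ax2 and Cpr67Fa1 with Cpr67Fa2 lay at 2.51, 2.14 and 2.22.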
